A study of Mus musculus with 18 samples.

Results

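Oligodendrocyte and myelin transcripts were followed in mouse forebrain through 9 genes: Mbp, Mobp, Mag, Mog, Cnp, Cldn11, Mal, Ermn and Ppp1r14a. They are 9 of the 17097 genes with a probe set of their own. Every probe set that the array annotation gives to 1 of these genes alone was taken, which made 15 of the 45037 probe sets that are not array controls. Mobp has 4 probe sets, Mbp, Cnp and Mal have 2 each, and the other genes have 1 each. All 15 lay above the filter on low values, a mean log2 expression of 5.95 over the 18 arrays.

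The arrays came from 3 TgCPEB4Δ4 mice, which carry a transgene for the Δ4 form of the RNA-binding protein CPEB4, and from 3 control mice (CTRL in the labels). All mice were 6 weeks old, and cortex and striatum of each were taken as 1 piece of tissue. What promoter drives the transgene, on which strain, and which alleles the control mice carry is not stated in the labels. From each mouse 3 RNA preparations were measured: total RNA (INPUT), RNA released from poly(U)-agarose at 25% formamide, enriched for short poly(A) tails (WASH), and RNA released at 90% formamide, enriched for long tails (ELUTED). Values are log2 expression made by the authors with RMA. The difference ELUTED minus WASH within a mouse is called the tail ratio here: above 0 a transcript took a larger share of the long-tail fraction, below 0 a larger share of the short-tail fraction.

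Myelin is the stacked membrane that oligodendrocytes wrap around axons, and in mouse forebrain its genes are switched on in the first weeks after birth. Its transcripts are among the most abundant of mature oligodendrocytes, and Mbp and Mobp mRNA are carried into the cell processes and translated there. The poly(A) tail at the end of an mRNA affects its translation and its stability. CPEB proteins bind a U-rich element in the untranslated end of target mRNAs and can lengthen or shorten that tail.

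The arrays of a group correlated with each other at 0.95 or more over the 27022 probe sets kept, except for the long-tail arrays of the control mice. There the array of control mouse 1 correlated with those of its group at 0.846 and 0.918. Its highest nonspecific control probe set stood at log2 7.30, against 5.64 to 6.29 on the TgCPEB4Δ4 long-tail arrays and 5.53 and 6.11 on the other control ones. The tail ratio of all probe sets varied more widely in some mice than in others, with an SD over probe sets of 0.61, 0.62 and 0.39 in TgCPEB4Δ4 mice 1, 2 and 3 and of 1.19, 0.59 and 0.86 in control mice 1, 2 and 3. Since 1 model gave both genotypes the same estimate of the spread for a gene, its tests were stricter in the genotype with the smaller spread. Besides genotype, age and tissue, the labels give only a number for each mouse, so p-values measure the spread between these animals only. The mouse gene Cpeb4 itself had 2 probe sets above the filter, with log2 differences in total RNA of 0.27 ± 0.23 (SE, limma adjusted p = 0.645) and 0.01 ± 0.16 (adjusted p = 0.991). Whether these probe sets read the transgene was not tested.

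The tissue carried markers of mature oligodendrocytes. On all 6 total RNA arrays each of the 9 genes was brighter than the highest nonspecific control. Ermn lay close to that control, at log2 7.57 against 7.52 in control mouse 3. The summed level of the 9 genes was log2 13.8 to 13.9 in TgCPEB4Δ4 mice and 13.9 to 14.0 in control mice. Of 36 annotated mature oligodendrocyte genes, the 9 included, 29 in TgCPEB4Δ4 mice and 28 to 32 in control mice exceeded the nonspecific control. Of 8 annotated genes of Schwann cells, the myelinating cells of peripheral nerve, 2 in TgCPEB4Δ4 mice and 1 to 3 in control mice exceeded it in total RNA. Their summed level was 9.67 to 10.1 in TgCPEB4Δ4 mice and 9.61 to 9.89 in control mice.

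The DNA in front of the genes differed in 1 motif of the lineage. The 250 bases upstream of the RefSeq start site (build GRCm38.p6) are shown for Mobp, whose window held the most copies of the motif searched, for Cnp, with 1 copy, and for Ppp1r14a, with none and the lowest tail ratio of the 9. The motif, searched on both strands, was ACAAAG, a core that SOX-family factors such as the oligodendrocyte regulator SOX10 recognise. Matches are in capitals, and one on the opposite strand reads as the reverse complement. The windows are chr9:120149492-120149741 on the plus strand for Mobp, chr11:100574689-100574938 on the plus strand for Cnp and chr7:29289070-29289319 on the plus strand for Ppp1r14a.
Mobp: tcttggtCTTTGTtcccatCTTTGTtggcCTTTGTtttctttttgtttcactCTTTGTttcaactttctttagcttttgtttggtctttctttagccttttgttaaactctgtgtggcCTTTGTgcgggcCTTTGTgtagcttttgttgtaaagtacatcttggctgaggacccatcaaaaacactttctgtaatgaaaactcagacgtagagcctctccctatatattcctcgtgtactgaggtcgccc
Cnp: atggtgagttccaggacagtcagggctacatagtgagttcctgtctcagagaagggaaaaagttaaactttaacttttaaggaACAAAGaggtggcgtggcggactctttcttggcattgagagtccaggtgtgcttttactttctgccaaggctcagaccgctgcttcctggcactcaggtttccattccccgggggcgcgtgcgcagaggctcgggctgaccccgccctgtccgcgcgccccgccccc
Ppp1r14a: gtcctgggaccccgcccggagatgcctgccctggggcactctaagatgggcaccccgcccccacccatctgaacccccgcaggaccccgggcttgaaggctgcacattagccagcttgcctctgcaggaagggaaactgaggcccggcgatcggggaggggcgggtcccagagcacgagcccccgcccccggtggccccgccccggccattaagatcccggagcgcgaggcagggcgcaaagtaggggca
The Mobp window held 6 matches, between 243 and 120 bases before the start. Windows of 8 of the 9 genes were used, 10 windows in all, and Mbp was left out of this search. Of these genes 3 (Mobp, Cnp and Mag) held a match, and Cldn11, Ermn, Mal and Mog held none, like Ppp1r14a. Whether the motif has a bearing on the tail ratio was not tested. The Mag windows with a match overlap and hold the same copy. Of 32851 mouse windows of the same length, 16.5% held at least 1 match and 1.74% held 2 or more. The motif was chosen after the windows of the genes were read, so these shares are no test of them. A match is a description of the letters and not a binding site, and no match says only that these letters are not in the window.

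Total RNA addressed whether the transgene changed the steady-state level of myelin transcripts. None of the 15 probe sets passed the test between genotypes (limma, adjusted p from 0.455 to 0.993), and of all 27022 probe sets 0 passed, which is 0%. At an unadjusted p under 0.05 there was 1 of the 15 and 2935 of all. The estimates lay below 0 for 14 of 15 probe sets, with a median of -0.09 over the 9 genes (1 probe set per gene, the one with the highest mean). Over all genes the median was 0.03, and 54.2% of all probe sets lay above 0. No decrease was thus shown. In tissue RNA, the number of oligodendrocytes and the RNA per oligodendrocyte cannot be told apart.

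Mbp encodes the basic protein that holds the cytoplasmic faces of compact myelin together. Its probe set 1419646_PM_a_at measured log2 11.94, 11.99 and 11.94 in the total RNA of TgCPEB4Δ4 mice 1, 2 and 3, against 12.11, 12.00 and 11.97 in control mice 1, 2 and 3. The ranges of the genotypes overlapped. The difference was -0.07 ± 0.10 (SE, n = 3 mice per genotype, limma adjusted p = 0.787), with a 95% interval from -0.29 to 0.15.

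Mobp, another small basic protein of compact myelin, has 4 probe sets. Probe set 1421010_PM_at measured 11.35, 11.16 and 11.01 in TgCPEB4Δ4 mice and 11.24, 11.32 and 11.25 in control mice. TgCPEB4Δ4 mouse 1 was the highest of all 6 and TgCPEB4Δ4 mouse 3 the lowest. Probe set 1436263_PM_at measured 10.14, 10.40 and 10.38 in TgCPEB4Δ4 mice and 10.53, 10.46 and 10.51 in control mice, so that each TgCPEB4Δ4 mouse lay below each control mouse. Neither difference passed, at -0.09 ± 0.12 (adjusted p = 0.761) and -0.19 ± 0.11 (adjusted p = 0.523).

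Mag and Mog are immunoglobulin-family proteins of the myelin surface, Mag on the membrane next to the axon and Mog on the outermost one. Mag measured 9.81, 9.75 and 9.65 in TgCPEB4Δ4 mice and 9.86, 9.81 and 9.52 in control mice, and its difference was 0.00 ± 0.12 (adjusted p = 0.993). Mog measured 8.52, 9.17 and 9.15 in TgCPEB4Δ4 mice and 9.06, 9.12 and 9.12 in control mice. Only TgCPEB4Δ4 mouse 1 was low for Mog, and the difference of -0.15 ± 0.17 did not pass (adjusted p = 0.736).

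Cnp, an enzyme of the cytoplasm-filled channels of myelin, had a log2 level of 9.60, 9.65 and 9.59 at probe set 1449296_PM_a_at in TgCPEB4Δ4 mice, against 9.73, 9.74 and 9.76 in control mice. These values did not overlap, although the difference was -0.13 ± 0.09 (adjusted p = 0.601). At its other probe set, 1418980_PM_a_at, the mice measured 9.90, 10.18 and 9.75 with the transgene and 9.96 to 10.30 without it, and the ranges overlapped.

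Mal, a lipid-raft protein of myelin membranes, gave the lowest estimate in total RNA. Probe set 1432558_PM_a_at measured 11.84, 12.00 and 12.00 in TgCPEB4Δ4 mice and 12.23, 12.21 and 12.13 in control mice, a difference of -0.24 ± 0.10 (adjusted p = 0.455, 95% interval from -0.48 to -0.01). All 3 TgCPEB4Δ4 mice lay below all 3 control mice. Probe set 1417275_PM_at, with a difference of -0.21 ± 0.12, did not overlap between genotypes either.

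In all, 4 of the 15 probe sets were lower in every TgCPEB4Δ4 mouse than in every control mouse (1 of Cnp, 1 of Mobp and both of Mal) and 0 were higher. Among all probe sets 7.3% had that lower pattern and 11.1% the opposite one. The claudin Cldn11, which forms the tight junctions between myelin layers, the cytoskeletal protein Ermn and the phosphatase inhibitor Ppp1r14a overlapped between genotypes, with differences of -0.06, -0.10 and -0.02.

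Summed markers of other cell types differed between mice in total RNA. Summed microglial markers (9 genes) in total RNA were log2 13.1, 12.2 and 11.8 in TgCPEB4Δ4 mice 1, 2 and 3, against 11.7 to 11.8 in control mice. Summed astrocyte markers (10 genes) were 14.7, 14.4 and 14.1 in TgCPEB4Δ4 mice, against 14.1 in each control mouse. Markers of both types were highest in TgCPEB4Δ4 mouse 1, the mouse with the lowest Mog and Mal values, and TgCPEB4Δ4 mouse 2 also exceeded every control mouse for both. Of the microglial genes 7 or 8 stood above the nonspecific control in TgCPEB4Δ4 mice and 7 in control mice, and of the astrocyte genes 8 or 9 in both. Summed markers of striatal neurons (8 genes) were 12.8 to 13.0 in TgCPEB4Δ4 mice and 13.1 to 13.2 in control mice, so that all 3 TgCPEB4Δ4 mice lay below the control mice. Summed endothelial markers (10 genes) were 11.4 to 11.6 in TgCPEB4Δ4 mice and 11.2 to 11.4 in control mice, and those of cortical neurons (9 genes) 13.7 to 13.9 in TgCPEB4Δ4 mice and 13.8 to 13.9 in control mice. The part of these cell types in the results was not tested. Leaving out both mice numbered 1, an alternative chosen after the data were seen, gave a median of -0.02 over the 9 genes in total RNA. Without TgCPEB4Δ4 mouse 1 alone that median was -0.087, and without control mouse 1 alone -0.065, against -0.094 with all mice.

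**Figure D1:**
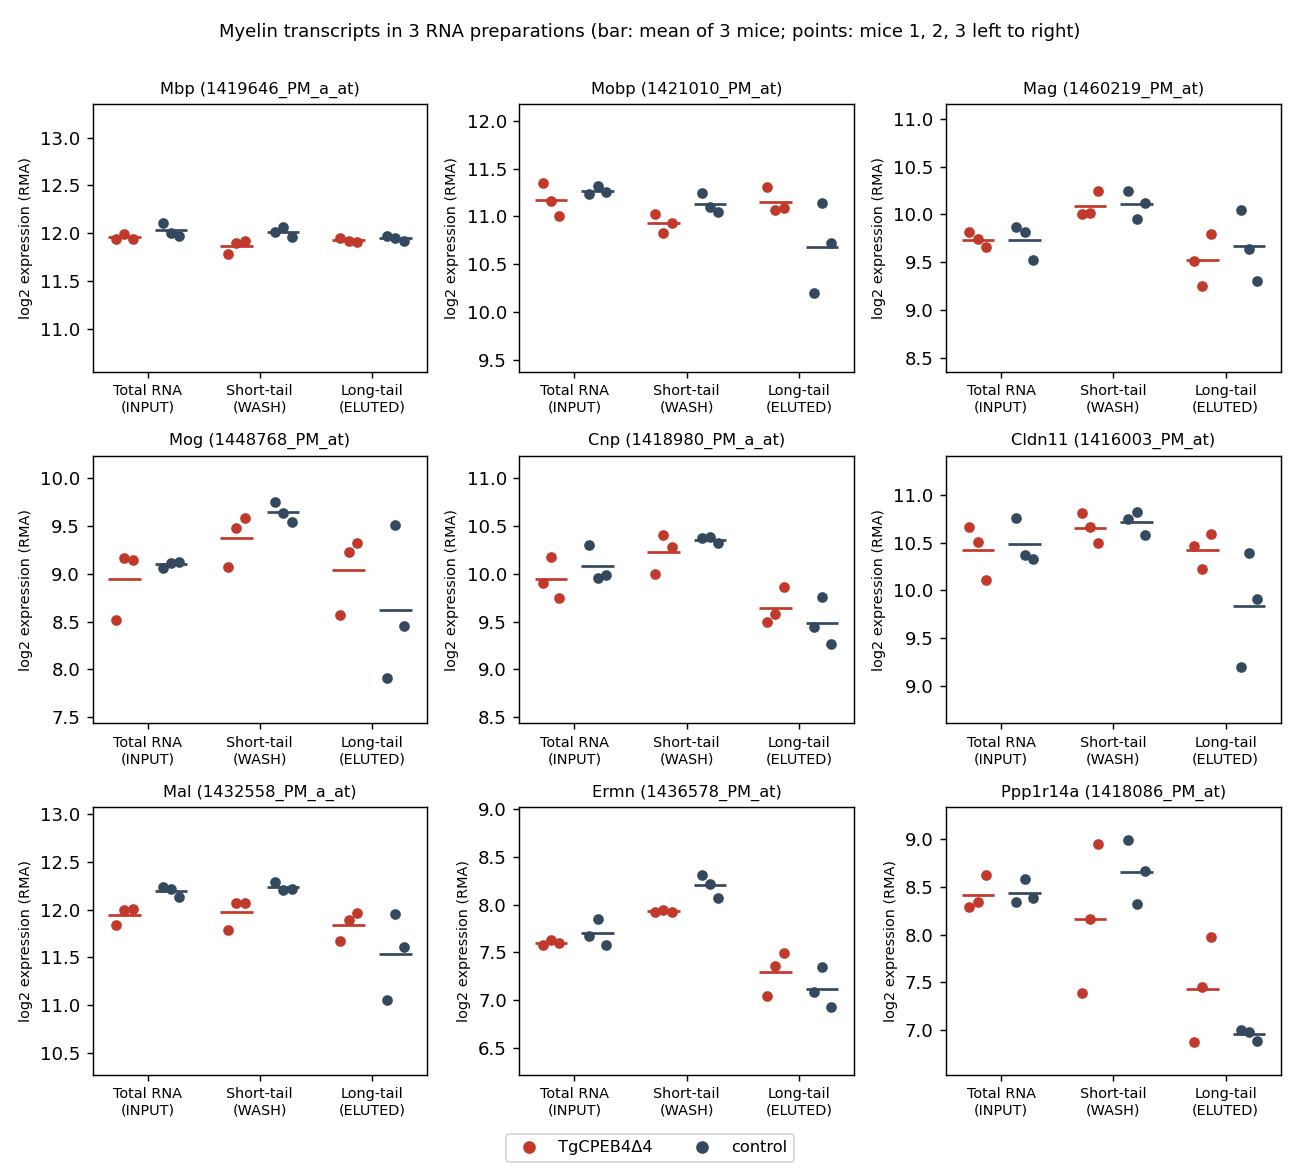
Log2 expression (RMA) of 1 probe set for each of the 9 genes in INPUT, WASH and ELUTED RNA; points are mice 1, 2 and 3 from left to right, bars the mean of 3, TgCPEB4Δ4 left of control. Each panel spans the same number of log2 units, and the control mice spread most in the long-tail fraction, as for Mog at 7.91, 9.51 and 8.45.

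Likeness to the myelin genes was measured as the Pearson correlation with their mean over the 6 total RNA arrays, for 11932 genes outside the oligodendrocyte lists. That mean was 9.99, 10.08 and 9.98 in TgCPEB4Δ4 mice and 10.18, 10.14 and 10.03 in control mice. The 5 genes with the highest values were Mrps27 (0.997), Gria2 (0.994), Tmem68 (0.992), Rnf44 (0.990) and Agtpbp1 (0.985). With 6 arrays of 2 genotypes and that many genes ranked, these values are a description only.

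In the short-tail fraction the estimates again lay mostly below 0, at 14 of 15 probe sets. None of the 15 passed (lowest adjusted p = 0.238), 0% of all probe sets did, and at an unadjusted p under 0.05 there were 3 of the 15 and 4466 of all. The median over the 9 genes was -0.20, against 0.03 over all genes. Ermn measured 7.92, 7.95 and 7.92 in TgCPEB4Δ4 mice and 8.31, 8.22 and 8.07 in control mice, a difference of -0.27 ± 0.10 (adjusted p = 0.238). Each TgCPEB4Δ4 mouse lay below each control mouse for Ermn, and likewise for 5 other probe sets: 1 of Cnp, 1 of Mbp, 1 of Mobp and both of Mal. Of all probe sets, 10.5% had this lower pattern and 14.1% the opposite one, which 0 of the 15 had.

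In the long-tail fraction 9 of 15 estimates lay above 0, with a median of 0.30 over the 9 genes and 0.08 over all genes. That median was 0.13 without control mouse 1 and 0.12 with the mean of a gene's probe sets. None passed (adjusted p from 0.334 to 0.961), nor did any other probe set (0%). At an unadjusted p under 0.05 there were 0 of the 15 and 4454 of all. No member separated the genotypes, where 14.1% of all probe sets were higher and 10.3% lower in every TgCPEB4Δ4 mouse. Cldn11 had the highest estimate. It measured 10.46, 10.23 and 10.59 in TgCPEB4Δ4 mice, against 9.20, 10.39 and 9.91 in control mice. Control mouse 1 was the lowest of all 6, control mouse 2 lay within the TgCPEB4Δ4 range, and the difference was 0.59 ± 0.30 (adjusted p = 0.334).

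The tail ratio within each genotype showed where myelin transcripts lay between the fractions. In TgCPEB4Δ4 mice 6 of the 15 probe sets passed the test against 0, 2 toward the long-tail fraction (both of Mobp) and 4 toward the short-tail fraction (Ppp1r14a, Ermn, Mag and 1 of Cnp). That split was 3 toward long and 2 toward short tails with each array centred on its median, where Cnp (adjusted p = 0.0539) and Mag (adjusted p = 0.0907) no longer passed. It was 3 and 1 after another quantile normalization, where Ermn (adjusted p = 0.0571) did not pass either. Among all probe sets 31.8% passed in these mice, 12.7% toward long and 19.1% toward short tails. The larger side turned with the scaling: 3441 of all probe sets passed toward long and 5160 toward short tails, against 5579 and 2806 with centring and 2766 and 2220 after quantile normalization. In control mice 10 of the 15 passed, 2 toward long tails, the same Mobp probe sets, and 8 toward short tails. Centring made these 4 and 7, and another quantile normalization 4 and 5. There 63% of all probe sets passed, 27.6% toward long and 35.4% toward short tails. The share of myelin probe sets that passed in either direction was thus near that of all probe sets. By direction the shares were less alike, with 8 of 15 toward short and 2 of 15 toward long tails, and this was not tested. Of all probe sets, 7465 passed toward long and 9569 toward short tails, against 10176 and 7592 with centring and 8364 and 7369 after quantile normalization. The median over the 9 genes was -0.34 in TgCPEB4Δ4 mice and -0.87 in control mice, and over all genes -0.17 and -0.18 in the same order. The control median was -0.56 without control mouse 1 and -0.51 after another quantile normalization.

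Ppp1r14a, an inhibitor of protein phosphatase 1 that is abundant in mature oligodendrocytes, had the lowest tail ratio of the set. Its long-tail values were 6.88, 7.45 and 7.97 in TgCPEB4Δ4 mice and 7.00, 6.98 and 6.88 in control mice. Its short-tail values were 7.39, 8.16 and 8.95 in TgCPEB4Δ4 mice and 8.99, 8.32 and 8.66 in control mice. The tail ratios were therefore -0.52, -0.72 and -0.98 in TgCPEB4Δ4 mice, against -1.99, -1.33 and -1.78 in control mice. Every mouse of both genotypes was below 0, and the genotypes did not overlap. The mean was -0.74 ± 0.16 in TgCPEB4Δ4 mice (SE, limma adjusted p = 0.0136) and -1.70 ± 0.16 in control mice (adjusted p = 0.00045). Without control mouse 1, whose long-tail value of 7.00 lay below the nonspecific control of that array, the control mean was -1.56 (adjusted p = 0.000129).

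Ermn, or ermin, an actin-binding protein of mature oligodendrocytes, lay on the same side. Its tail ratios were -0.88, -0.59 and -0.43 in TgCPEB4Δ4 mice and -1.23, -0.87 and -1.14 in control mice. All 6 mice were below 0, and the ranges met at TgCPEB4Δ4 mouse 1. The mean was -0.64 ± 0.14 in TgCPEB4Δ4 mice (adjusted p = 0.0139) and -1.08 ± 0.14 in control mice (adjusted p = 0.000749). The long-tail value of Ermn on the array of control mouse 1, 7.08, was also below the nonspecific control there, and without that mouse the control mean was -1.01 (adjusted p = 0.000593).

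The enzyme Cnp had tail ratios of -0.51, -0.82 and -0.43 in TgCPEB4Δ4 mice and -0.93, -0.62 and -1.05 in control mice at probe set 1418980_PM_a_at. The ranges overlapped. Its mean passed in both genotypes, at -0.59 ± 0.14 (adjusted p = 0.0186) in TgCPEB4Δ4 mice and -0.87 ± 0.14 (adjusted p = 0.00159) in control mice. Probe set 1449296_PM_a_at gave the same sign in every mouse and passed in control mice, with -0.37 ± 0.14 (adjusted p = 0.0671) in TgCPEB4Δ4 mice and -0.58 ± 0.14 (adjusted p = 0.0074) in control mice. That control call was lost after another quantile normalization (-0.18, adjusted p = 0.357) and without control mouse 3 (-0.43, adjusted p = 0.0556).

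Among the surface proteins, Mag had tail ratios of -0.49, -0.76 and -0.46 in TgCPEB4Δ4 mice and of -0.19, -0.31 and -0.81 in control mice. Its mean was -0.57 ± 0.15 in TgCPEB4Δ4 mice (adjusted p = 0.0265) and -0.44 ± 0.15 in control mice (adjusted p = 0.0349). The call in control mice was lost under 7 of 14 alternatives. The mean was -0.25 (adjusted p = 0.229) without control mouse 3 and -0.05 (adjusted p = 0.782) after another quantile normalization.

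Mog varied most between control mice. Its tail ratios were -0.51, -0.25 and -0.26 in TgCPEB4Δ4 mice and -1.84, -0.12 and -1.09 in control mice. Control mice thus lay on both sides of the TgCPEB4Δ4 range. The mean was -0.34 ± 0.27 in TgCPEB4Δ4 mice (adjusted p = 0.354) and -1.02 ± 0.27 in control mice (adjusted p = 0.0122). It came to -0.60 (adjusted p = 0.0305) without control mouse 1 and to -0.98 (adjusted p = 0.0579) without control mouse 3. After another quantile normalization it was -0.66 (adjusted p = 0.0604).

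The tight-junction gene Cldn11 and the raft gene Mal passed in control mice only, and the difference between genotypes, given further on, did not pass. Cldn11 had tail ratios of -0.35, -0.43 and 0.09 in TgCPEB4Δ4 mice and of -1.55, -0.43 and -0.67 in control mice. Its mean was -0.23 ± 0.22 in TgCPEB4Δ4 mice (adjusted p = 0.423) and -0.88 ± 0.22 in control mice (adjusted p = 0.0086), or -0.55 (adjusted p = 0.0185) without control mouse 1. Mal had tail ratios of -0.12, -0.18 and -0.11 in TgCPEB4Δ4 mice and -1.23, -0.25 and -0.61 in control mice at probe set 1432558_PM_a_at. Its control mean was -0.70 ± 0.18 (adjusted p = 0.0104), or -0.43 (adjusted p = 0.0324) without control mouse 1. That control call was lost under 1 of 14 alternatives (highest limma adjusted p = 0.0583). At probe set 1417275_PM_at Mal did not pass in either genotype, with means of -0.14 in TgCPEB4Δ4 mice and -0.23 in control mice.

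The compact-myelin genes Mbp and Mobp held the probe sets with a tail ratio above 0 in all 6 mice, 1 of Mbp and 3 of Mobp. Mbp at 1419646_PM_a_at had tail ratios of 0.17, 0.02 and -0.01 in TgCPEB4Δ4 mice and -0.04, -0.11 and -0.05 in control mice. These ratios lay close to 0, and neither mean passed (0.06 ± 0.12, adjusted p = 0.711, in TgCPEB4Δ4 mice and -0.07 ± 0.12, adjusted p = 0.63, in control mice). At 1451961_PM_a_at all 6 mice were above 0, with means of 0.22 ± 0.14 (adjusted p = 0.248) in TgCPEB4Δ4 mice and 0.29 ± 0.14 (adjusted p = 0.102) in control mice.

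Mobp had 2 probe sets called toward the long-tail fraction. Mbp 1451961_PM_a_at also passed that way in control mice under 3 of 14 alternatives: another quantile normalization (0.46, adjusted p = 0.027), arrays centred on their median (0.48, adjusted p = 0.0228) and the mouse as a random block (0.29, adjusted p = 0.0258). Probe set 1441308_PM_at had tail ratios of 1.17, 0.88 and 0.52 in TgCPEB4Δ4 mice and 0.07, 1.01 and 1.17 in control mice. Probe set 1436263_PM_at had 0.48, 0.42 and 0.52 in TgCPEB4Δ4 mice and 0.67, 0.43 and 0.90 in control mice. All 6 mice were above 0 for both. The means were 0.85 ± 0.22 (adjusted p = 0.0234) in TgCPEB4Δ4 mice and 0.75 ± 0.22 (adjusted p = 0.0181) in control mice for the first. Its control call was lost without control mouse 2 (0.62, adjusted p = 0.0698) and without control mouse 3 (0.54, adjusted p = 0.12). For 1436263_PM_at the means were 0.47 ± 0.13 (adjusted p = 0.0292) in TgCPEB4Δ4 mice and 0.67 ± 0.13 (adjusted p = 0.00337) in control mice.

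The Mobp probe sets differed among themselves in control mice. Probe set 1421010_PM_at, the one with the highest mean, had tail ratios of 0.28, 0.25 and 0.15 in TgCPEB4Δ4 mice and -1.05, 0.04 and -0.33 in control mice. Its control mean was -0.44 ± 0.19 (adjusted p = 0.0736), or -0.14 (adjusted p = 0.443) without control mouse 1. It passed toward short tails without control mouse 2 (-0.69, adjusted p = 0.0148) and, at the same mean, with the mouse as a random block (adjusted p = 0.0232) and with an intensity trend in the prior variance (adjusted p = 0.0361). Probe set 1450088_PM_a_at was above 0 in all 6 mice, with means of 0.38 ± 0.14 (adjusted p = 0.0713) in TgCPEB4Δ4 mice and 0.25 ± 0.14 (adjusted p = 0.153) in control mice. It passed toward long tails under 6 of 14 alternatives in TgCPEB4Δ4 mice (lowest limma adjusted p = 0.0174). In control mice it did so under 2 of 14 (lowest adjusted p = 0.0136). Which Mobp transcripts each probe set reads was not tested.

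**Figure D2:**
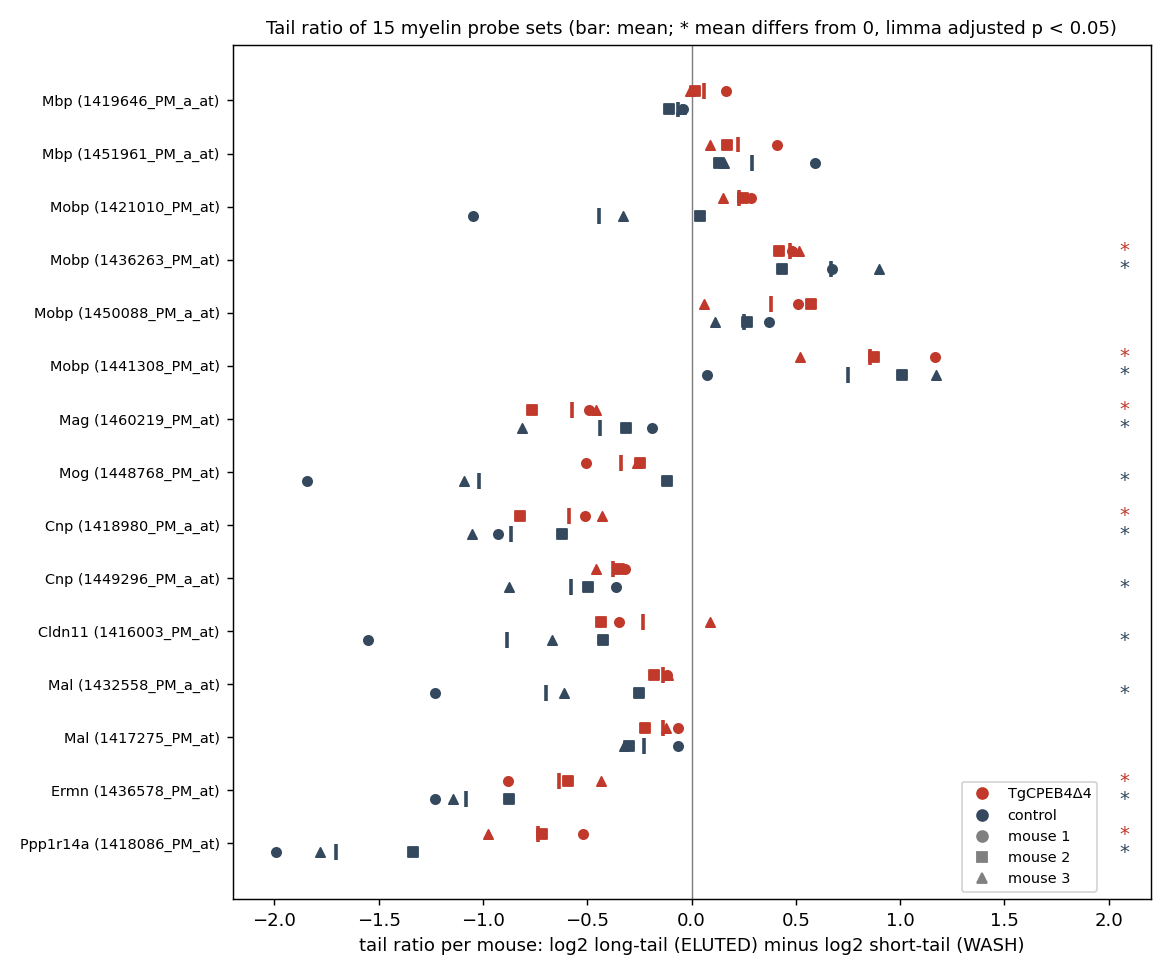
Tail ratio (log2 ELUTED minus log2 WASH) of all 15 probe sets in each mouse, TgCPEB4Δ4 above control in each row; the marker shape gives the mouse, the bar the mean of 3 mice, and an asterisk a mean that differs from 0 (limma adjusted p under 0.05). Ppp1r14a, Ermn, Cnp and Mag lie left of 0 in all 6 mice and 3 of the 4 Mobp probe sets lie right of it, while control mouse 1 (dark circle) is the lowest of its group for Mog, Cldn11 and Mal 1432558_PM_a_at.

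How many probe sets passed changed with single mice. Without TgCPEB4Δ4 mouse 1 or without TgCPEB4Δ4 mouse 2, 0 of the 15 probe sets and 0 of all probe sets passed in TgCPEB4Δ4 mice, against 6 and 8601 with all mice. The median of the 9 genes was then -0.25 without mouse 1 and -0.38 without mouse 2. Without both mice numbered 1, 5 of the 15 and 6766 of all probe sets passed in TgCPEB4Δ4 mice. Without TgCPEB4Δ4 mouse 3, Mobp 1436263_PM_at (adjusted p = 0.0954), Mag (adjusted p = 0.0609) and Ppp1r14a (adjusted p = 0.062) did not pass. Without control mouse 3, 6 of the 15 passed in control mice, against 10 with all mice. The median of the 9 genes per mouse was -0.49, -0.43 and -0.26 in TgCPEB4Δ4 mice and -1.23, -0.31 and -0.81 in control mice, below the median of all probe sets in each of the 6. The median of all probe sets ran from -0.15 to -0.07 in TgCPEB4Δ4 mice and from -0.09 to -0.01 in control mice. The 9 probe sets were brighter, with array medians of log2 9.30 to 10.40, against 7.58 to 7.89 for all probe sets kept. With the filter at the 60th percentile, 3565 of all probe sets passed toward long and 7843 toward short tails in control mice. The part of brightness in the lower medians was not tested. When each array was centred on its median, the median of the 9 genes in TgCPEB4Δ4 mice was -0.16, and after another quantile normalization -0.08.

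Whether the transgene changed the tail ratio was tested as the difference between genotypes in the same model. None of the 15 probe sets passed (adjusted p from 0.371 to 0.881), 0% of all probe sets did, and at an unadjusted p under 0.05 there were 2 of the 15 and 3621 of all. An estimate above 0 places a transcript nearer the long-tail fraction in TgCPEB4Δ4 mice. The estimates lay above 0 for 12 of 15 probe sets and for 48.1% of all. The median was 0.56 over the 9 genes and 0.02 over all genes. Without control mouse 1 the median of the 9 genes was 0.30, and with the mean of a gene's probe sets it was 0.33. Over all 15 probe sets the median was 0.20. The largest estimate was that of Ppp1r14a, 0.97 ± 0.23 (SE, adjusted p = 0.371, 95% interval from 0.44 to 1.49), from the ratios given above. Mog followed with 0.68 ± 0.39 (adjusted p = 0.43) and Mobp 1421010_PM_at with 0.67 ± 0.27 (adjusted p = 0.371). Cldn11 had 0.65 ± 0.31 (adjusted p = 0.382) and Mal 1432558_PM_a_at 0.56 ± 0.25 (adjusted p = 0.375). Marker lists of other cells also had medians above 0: microglia 0.28, astrocytes 0.24, and striatal neurons, neurons in general and Schwann cells 0.23 each. Medians below 0 were those of endothelial cells (-0.08), cortical neurons (-0.03) and oligodendrocyte precursors (-0.11). Whether the 9 genes differ from these lists was not tested.

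All 3 TgCPEB4Δ4 mice exceeded all 3 control mice at 4 probe sets, 1 each of Ppp1r14a, Mobp, Mal and Mbp, and at 0 the order was turned. Of all probe sets 9.66% were higher and 8.57% lower in this way. The result depended on control mouse 2, which had the smallest spread of tail ratios among the control mice. Without it Ppp1r14a (1.15, adjusted p = 0.0214) and Mog (1.13, adjusted p = 0.0361) passed, as did 2487 of all probe sets, against 0 with all mice.

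**Figure D3:**
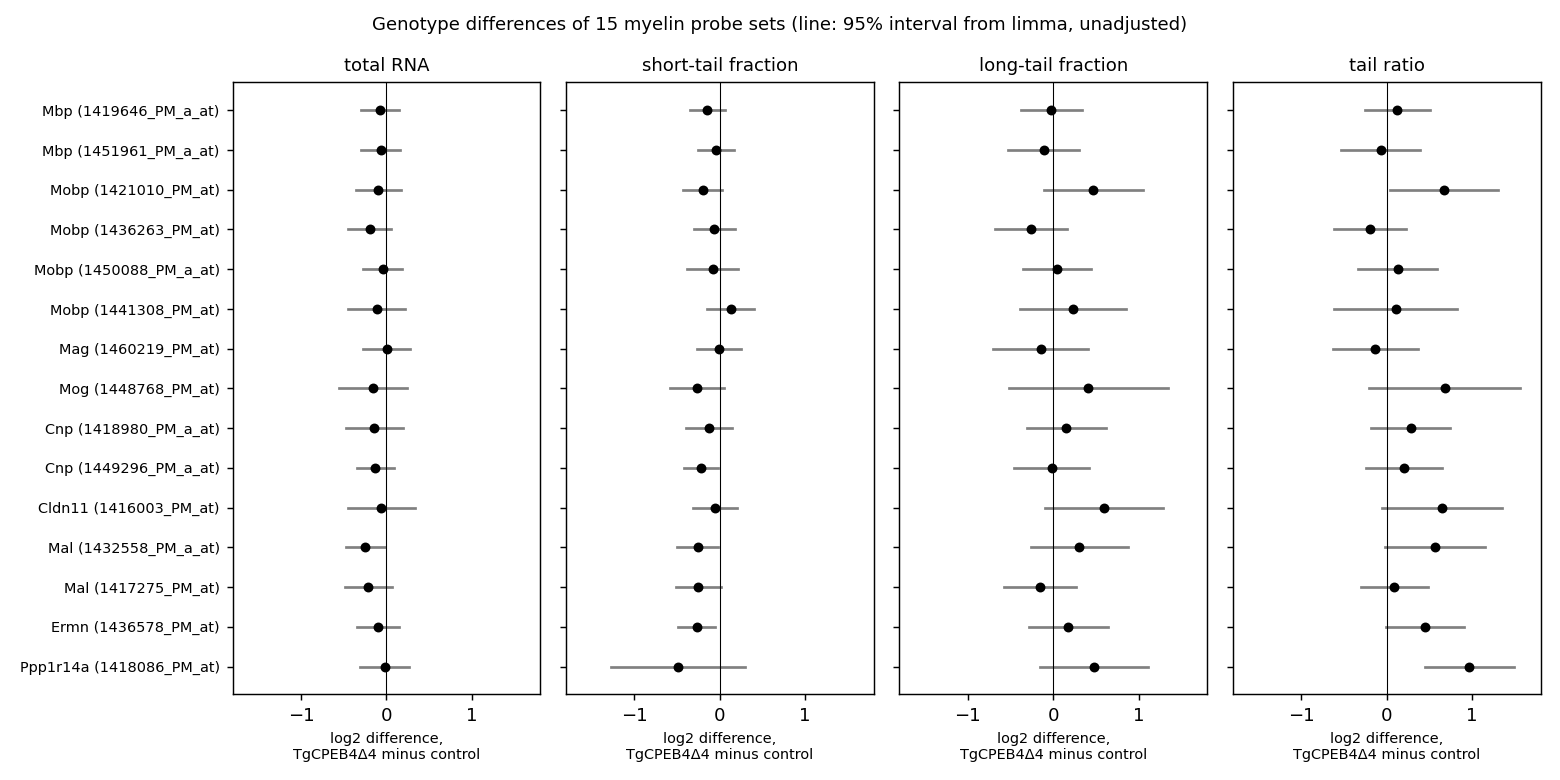
Log2 difference, TgCPEB4Δ4 minus control, of the 15 probe sets in INPUT, WASH and ELUTED RNA and in the tail ratio; points are limma estimates from 3 mice per genotype and lines their unadjusted 95% intervals. Estimates in total RNA lie between -0.24 and 0.00, and those of the tail ratio reach 0.97 for Ppp1r14a, where no estimate passed the adjusted test.

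The other genes of the mature oligodendrocyte gave the wider setting. Of 33 further genes on that list, 27 had a probe set of their own and 25 passed the filter. In total RNA 0 of the 25 passed between genotypes, with 8 estimates above 0 and 17 below and a median of -0.07. Sox10, Olig1 and Olig2, transcription factors of the lineage, had differences of 0.00 ± 0.09, -0.04 ± 0.11 and -0.15 ± 0.19. In TgCPEB4Δ4 mice 5 of the 25 had a tail ratio below 0 that passed and 0 above, with a median of -0.25. In control mice 14 passed below 0 and 2 above, with a median of -0.52. Of all probe sets, 19.1% passed below 0 and 12.7% above in TgCPEB4Δ4 mice. In control mice these shares were 35.4% and 27.6%. Between genotypes 0 passed, with a median of 0.11.

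Ugt8a, which makes the galactolipids of myelin, passed in both genotypes. Its tail ratios were -1.05, -1.01 and -0.64 in TgCPEB4Δ4 mice, against -2.67, -1.11 and -2.07 in control mice, and the genotypes did not overlap. The other genes that passed in TgCPEB4Δ4 mice with the largest size were Evi2a (-0.79), Gsn (-0.71), an actin-severing protein, and Aspa (-0.60), the enzyme that splits N-acetylaspartate. In control mice the largest were Qdpr (-2.48), which regenerates tetrahydrobiopterin, Ugt8a (-1.95), the tetraspanin Tspan2 (-1.32) and the carbonic anhydrase Car2 (-1.32). Qdpr measured -1.47, -1.24 and -0.53 in TgCPEB4Δ4 mice and -3.83, -1.03 and -2.57 in control mice. Control mouse 1 was the lowest of its group for Qdpr and for Ugt8a.

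The genes that passed toward long tails, in control mice, were Nfasc, whose protein anchors myelin at the paranodes and which neurons also express, and Plxnb3, a semaphorin receptor. Nfasc had a tail ratio of 0.34 ± 0.14 in TgCPEB4Δ4 mice (adjusted p = 0.0964) and 0.63 ± 0.14 in control mice (adjusted p = 0.00577). Plxnb3 had -0.13 ± 0.20 (adjusted p = 0.643) in TgCPEB4Δ4 mice and 0.57 ± 0.20 (adjusted p = 0.0385) in control mice. Olig1 passed in control mice (-0.85 ± 0.21, adjusted p = 0.00898), whereas Sox10 (0.10 ± 0.15, adjusted p = 0.563) and Olig2 (-0.17 ± 0.17, adjusted p = 0.398) did not.

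Oligodendrocyte precursors were represented by 8 genes above the filter, and the precursor receptor Pdgfra was below it. Of 10 annotated precursor genes, 2 to 5 in TgCPEB4Δ4 mice and 3 to 6 in control mice exceeded the nonspecific control in total RNA. In the short-tail fraction 8 did in both genotypes. In the long-tail fraction 8 did in TgCPEB4Δ4 mice and 5 to 8 in control mice. In total RNA 0 of the 8 passed between genotypes. Ptprz1, a receptor phosphatase that astrocytes also express, passed below 0 in both genotypes, with -0.52 ± 0.13 in TgCPEB4Δ4 mice (adjusted p = 0.0199) and -0.53 ± 0.13 in control mice (adjusted p = 0.0084). Lhfpl3 passed below 0 in TgCPEB4Δ4 mice (-0.45 ± 0.15, adjusted p = 0.0476). Gpr17, a receptor of cells about to differentiate, passed above 0 in control mice (0.59 ± 0.22, adjusted p = 0.0419). Of all probe sets, 19.1% passed below 0 in TgCPEB4Δ4 mice, and 35.4% below and 27.6% above 0 in control mice.

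**Figure D4:**
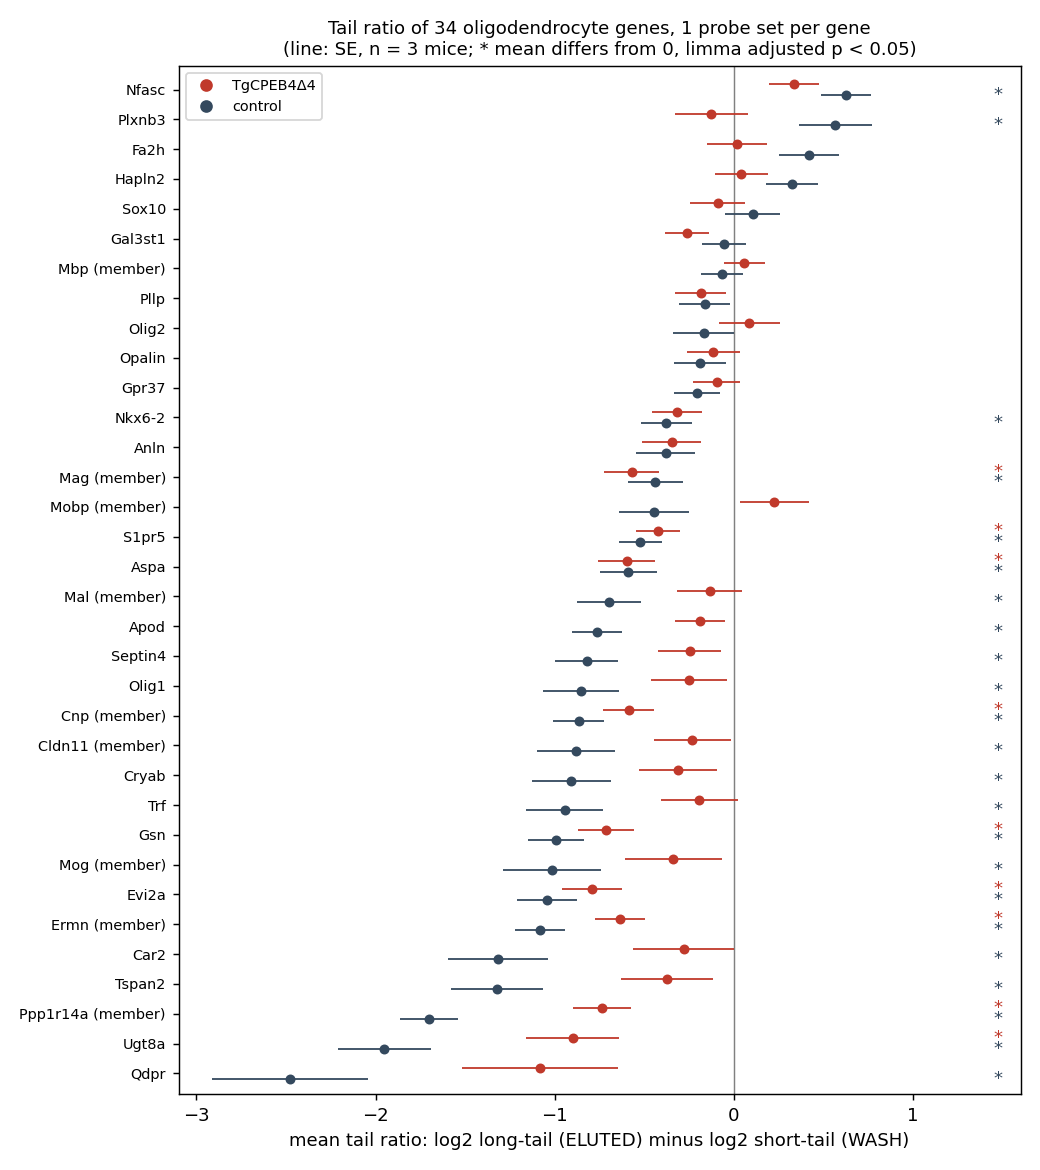
Mean tail ratio (log2 ELUTED minus log2 WASH) of the 9 genes and of 25 other mature oligodendrocyte genes, 1 probe set per gene, ordered by the control mean, TgCPEB4Δ4 above control in each row; lines are SE (n = 3 mice) and asterisks mark means that differ from 0 (limma adjusted p under 0.05). Qdpr, Ugt8a and Ppp1r14a have the lowest control means, at -2.48, -1.95 and -1.70, and Nfasc the highest, at 0.63.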

How the data were processed

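Total RNA, short-tail RNA and long-tail RNA of 3 TgCPEB4Δ4 and 3 control mice were measured on 18 single-colour arrays. Per the labels' protocols, 5 ng of RNA was amplified over 21 cycles before labelling. The authors deposited log2 expression per probe set made with RMA, per the submitters' processing notes, with no version stated there. RMA makes array distributions alike, so values give shares within a fraction, and levels of different probe sets were not compared. There is no read depth behind array values; 3 mice per genotype limit their precision.

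Of 45141 probe sets, 104 controls were left out, 28898 had 1 annotated gene, 551 several and 15588 no entry; symbols were checked against RefSeq GRCm38.p6, which changed 0. A probe set annotated to Mbp together with another gene was not used. Probe sets with a mean above the 40th percentile were kept (27022). Linear models came from limma 3.58.1, run in R 4.3.3 (two-sided, Benjamini-Hochberg over the probe sets kept, threshold 0.05; statmod 1.5.0 for a random block). Each preparation was compared between genotypes. Tail ratios of all 6 mice entered 1 model. WASH and ELUTED are paired by mouse in the labels; their deviations from the group means correlated at 0.72, 0.33 and 0.43 in TgCPEB4Δ4 mice and at -0.07, 0.16 and -0.02 in control mice. Scripts were tested on simulated data.

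All members and rule-listed lineage genes were named, and up to 4 further list genes per direction and comparison with the largest size among those that passed. The members, gene lists and tests were chosen with earlier results of these data known, and the promoter motif after the promoter windows were read. Alternatives covered the filter, normalization, probe set choice, variance prior, blocking and leaving out mice.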

Additional observations from a re-analysis of the deposited data

How the results depend on the processing

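Across 14 alternatives for each of the 15 probe sets, no call changed direction. In total RNA, the short-tail and the long-tail fraction no probe set of the 15 passed under any alternative, while 13, 10 and 15 of 210 uncalled estimates each changed sign. For the tail ratio, 22 of 210 results in TgCPEB4Δ4 mice and 14 of 210 in control mice lost the threshold and 8 of 210 in each gained it. The median of the 9 genes in TgCPEB4Δ4 mice was -0.34, -0.16 with arrays centred on their median and -0.076 after another quantile normalization. Leaving out 1 mouse at a time gave 0 to 8 calls in TgCPEB4Δ4 mice, 6 to 10 in control mice and 0 to 2 for the genotype difference in tail ratio, the 2 without control mouse 2.

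Of all probe sets, 8601 passed in TgCPEB4Δ4 mice, 4612 with the filter at the 60th percentile, 4986 after another quantile normalization and 0 to 13560 with 1 mouse left out. Between genotypes, 0 passed in the long-tail fraction, against 4677 with the mouse as a random block and up to 2319 with 1 mouse left out. In the short-tail fraction 5, 2 and 2 passed with the stricter filter, another quantile normalization and median centring, and up to 359 with 1 mouse left out. Without a replicate block between the fractions of a mouse, 5 probe sets of the 15 passed in TgCPEB4Δ4 mice and 9 in control mice. The mice of the 2 genotypes share only a number: the deviations of same-numbered mice correlated at 0.36, -0.31 and 0.27 for the tail ratio. With that number as a replicate block, 0 of the 15 passed between genotypes in any measure.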
